A study of Mus musculus with 7 samples.

Results

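Long noncoding RNAs (lncRNAs) that are abundant in most cells or known from neurons were followed in sorted cells of the mouse olfactory lineage. A list of 7 genes was matched by name to the expression tables: Malat1, Neat1, Miat, Snhg11, Rmst, Sox2ot and Dlx6os1. They matched 8 of the 54532 gene entries, since Dlx6os1 has 2, and 6 of the 7 genes passed the filter on low counts. The gene that did not pass is Rmst.

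The study sorted GFP-positive cells by flow cytometry from the olfactory epithelium of young mice and sequenced their polyadenylated RNA. Mature olfactory sensory neurons came from the OMP-GFP line at postnatal day (P) 2, P7 and P16, with 1 library per age. Intermediate progenitor cells came from the Neurog1-GFP line at P3, P7, P9 and P16, also with 1 library per age. Each library was made from pooled sorted cells, and no other genotype or treatment is named in the labels. Ages therefore served as the replicates of a population, and the p-values measure a spread between libraries that includes age and may be partly technical. Population and mouse line coincide in every library, so their effects cannot be told apart.

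Libraries held 24203965 to 25930727 counts on genes. Of 10 mature sensory neuron markers, 9 were higher in mature neurons, and all 9 progenitor markers were lower (edgeR quasi-likelihood, adjusted p under 0.05). The exception was Omp, the gene that marks the mature line, whose values overlapped: mature neurons held 1936 ± 442 CPM (SD, n = 3) and progenitors 2566 ± 632 CPM (SD, n = 4), where CPM is the count scaled to library size with TMM factors. The summed level of the 10 mature markers was 17827 to 25504 CPM in mature neurons and 6284 to 9447 CPM in progenitors, so the progenitor libraries also held mature neuron transcripts. The P16 mature neuron library stood apart in markers of other cells, with 92.7 CPM over 7 leukocyte genes against 6.67 to 28.8 CPM elsewhere and 755 CPM over 6 Bowman gland genes against 44.9 to 164 CPM. Most of that Bowman gland sum was Bpifb9a and Bpifb9b, with 77.5 ± 99.8 and 235 ± 261 CPM in mature neurons (SD, n = 3). Aqp5 held 29.1 ± 8.38 CPM there, and the means of Sox9, Muc5b and Sox10 were 1.71, 1.22 and 1.29 CPM.

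LncRNAs are transcripts that are not translated, and many of them act in the nucleus where they are made. Malat1 gathers in nuclear speckles beside splicing factors, and the long form of Neat1 is the scaffold of paraspeckles, bodies built on RNA-binding proteins such as NONO and SFPQ. Miat (also called Gomafu) is a nuclear RNA of neurons that binds splicing factors, and Snhg11 carries small nucleolar RNAs in its gene. Sox2ot spans the gene of the stem cell transcription factor Sox2, Rmst is an RNA of neural progenitors that binds the SOX2 protein, and Dlx6os1 (also called Evf2) is made from the Dlx5/Dlx6 locus, which is best known from forebrain interneurons.

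The first sequence is shown because it holds the part of Malat1 known to stand in for a poly(A) tail, which bears on how a poly(A) library captures this RNA. It is the stretch from base 6574 to base 6760 of the longest annotated transcript, which has 6983 bases (GENCODE M21, GRCm38). Capitals mark its longest run of A, with 12 bases, and the T-rich stretches of at least 10 bases in the 100 bases before it (4 or more T on either side of 1 or 2 other bases). Such stretches and the run of A are known to fold into a triple helix.

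Malat1: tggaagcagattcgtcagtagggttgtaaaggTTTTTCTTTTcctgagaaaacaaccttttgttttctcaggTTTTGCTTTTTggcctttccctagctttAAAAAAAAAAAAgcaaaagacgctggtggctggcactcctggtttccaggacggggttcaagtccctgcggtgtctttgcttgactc

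The 2 T-rich stretches and the run of A lie at bases 6606 to 6615, 6646 to 6656 and 6674 to 6685, and 298 more bases are annotated after the run of A. The last 50 of these hold a poly(A) signal (AATAAA or ATTAAA). TTTTTCTTTT occurs in 4.42%, TTTTGCTTTTT in 0.538% and 12 A in 5.04% of 111422 annotated transcripts of at least 500 bases, searched on the transcript strand, and 29 transcripts hold all 3. Neat1 is annotated in a long form of 20771 bases and a short form of 3004 bases. Counts and TPM were given per gene, so the Neat1 values here merge these forms and are not levels of the long form. The last 50 bases of the short form hold a poly(A) signal and those of the long form do not, where 40.24% of the transcripts do. The effect of poly(A) selection on the measured level of either RNA was not tested.

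The next sequence shows the repeats for which Miat is known, the letters ACTAAC, which match the branch point sequence bound by the splicing factor SF1. It runs from base 4470 to base 4669 of a transcript of 8758 bases and has 4 matches, in capitals.

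Miat: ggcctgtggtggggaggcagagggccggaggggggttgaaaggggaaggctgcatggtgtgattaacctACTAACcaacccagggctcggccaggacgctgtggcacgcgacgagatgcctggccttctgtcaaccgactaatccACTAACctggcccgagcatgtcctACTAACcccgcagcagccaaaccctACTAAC

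The whole transcript holds 11 such matches, or 1.256 per kb. Only 0.0939% of 42587 transcripts of at least 2000 bases have this density or a higher one, and 31.58% hold the letters at all. The other members' transcripts of that length reached at most 0.373 per kb.

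Promoters are shown for Dlx6os1 alone, since its counts moved together with those of its neighbours. Each runs from 250 bases before to 50 bases after a RefSeq start on the minus strand (GRCm38.p6), at chr6:6861634-6861933 and chr6:6869484-6869783. Capitals mark TAATTA, the core of many homeodomain sites, and in the second promoter also CAGCTG, an E-box, and CTTTGT, the reverse complement of ACAAAG, a Sox-type site.

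Dlx6os1 promoter a: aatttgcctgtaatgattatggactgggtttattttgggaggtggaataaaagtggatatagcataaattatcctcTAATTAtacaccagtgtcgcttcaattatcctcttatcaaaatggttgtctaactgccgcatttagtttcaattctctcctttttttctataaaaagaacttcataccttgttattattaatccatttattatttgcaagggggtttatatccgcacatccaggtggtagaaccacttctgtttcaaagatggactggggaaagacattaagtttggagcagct

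Dlx6os1 promoter b: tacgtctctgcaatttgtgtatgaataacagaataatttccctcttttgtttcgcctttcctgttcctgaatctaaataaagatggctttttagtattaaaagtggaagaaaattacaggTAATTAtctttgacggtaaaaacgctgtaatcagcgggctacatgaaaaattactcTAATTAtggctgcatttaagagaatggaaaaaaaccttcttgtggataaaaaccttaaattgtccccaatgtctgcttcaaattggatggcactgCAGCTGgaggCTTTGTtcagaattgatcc

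TAATTA occurs in 5.29% of 32851 RefSeq promoters of the same length, CAGCTG in 16.3% and ACAAAG in 18.7%, on either strand. CAGATG (17.2%) and CCCNNGGG (13.7%) were also searched and not found in these windows. Of the 7 listed genes, 4 have promoter entries. A match describes the letters only.

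Levels were compared between genes as TPM, a share of all transcripts that is scaled for length. Malat1 was the most abundant of the listed RNAs in every library, at 153 to 232 TPM, and its range did not overlap that of Neat1, at 71.1 to 149 TPM. Miat, at 9.11 to 80.2 TPM, overlapped Neat1 through a single library. Dlx6os1 followed at 2.53 to 36.0 TPM and Snhg11 at 2.61 to 5.48 TPM. The order of the latter 2 depended on the population, because Dlx6os1 lay above Snhg11 in every progenitor library and overlapped it in mature neurons. Dlx6os1 lay below Miat in every library, although their ranges across the progenitor libraries overlapped. Rmst (0.15 to 0.83 TPM) and Sox2ot (0.13 to 0.44 TPM) overlapped each other and lay below all the rest. Among 12841 annotated lncRNA genes, Malat1 ranked 7th by mean TPM, Neat1 18th, Miat 59th and Dlx6os1 191st. LncRNAs together held 1.74 to 1.98% of all TPM in a library, and Malat1 alone 0.879 to 1.20% of that lncRNA total. The entry ranked first, Gm42418, had a mean of 2440 TPM and so weighs on that total.

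**Figure D1:**
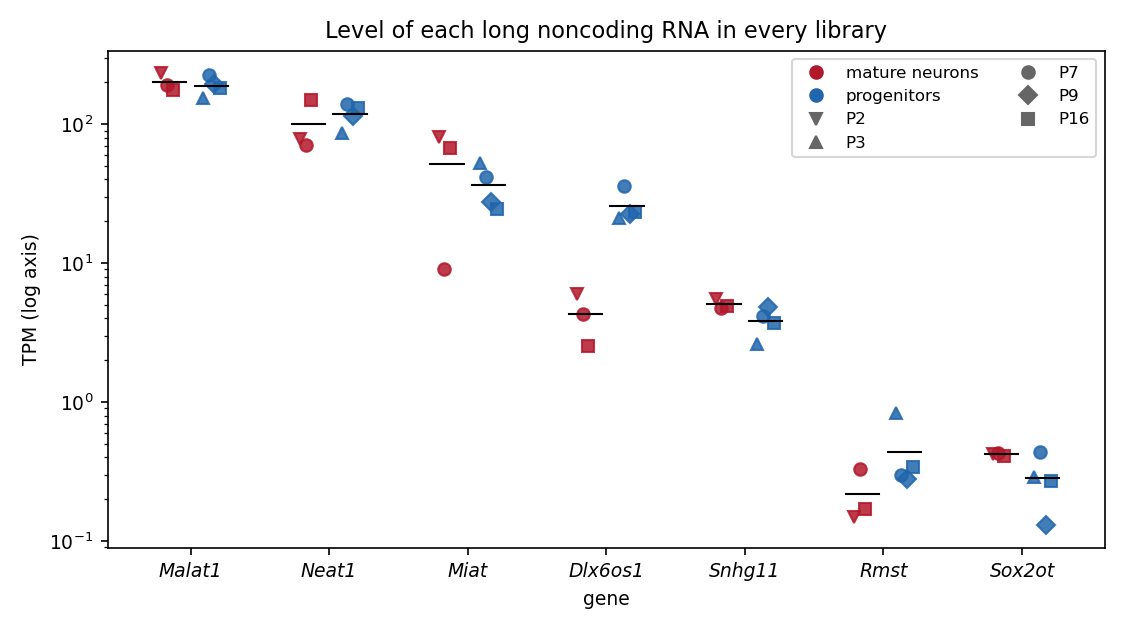
TPM of each listed RNA (log axis) in the 3 mature neuron libraries (red) and the 4 progenitor libraries (blue), with symbols for age and a black line at the mean. Malat1 lies at 153 to 232 TPM in every library, Dlx6os1 is the member whose populations lie farthest apart, and the P7 mature neuron library is the lone low point of Miat at 9.11 TPM.

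The main comparison asked which of these RNAs differ between mature neurons and progenitors. Dlx6os1 was lower and Sox2ot was higher in mature neurons, which makes 2 of 6 tested members, where 58.8% of all 17975 tested genes were called (28.8% higher, 30.0% lower; edgeR quasi-likelihood, adjusted p under 0.05). Malat1, Neat1, Miat and Snhg11 did not pass. Sox2ot met the filter on low counts only through the mature neuron libraries, where it was higher. Its call and its separate range are therefore not independent of that filter. Mature neuron and progenitor libraries took separate CPM ranges for 3 of 6 members (Dlx6os1, Sox2ot and Snhg11), where 61.4% of all tested genes had separate ranges. The median log2 fold, mature neuron over progenitor, was 0.35 over the 6 members and 0.01 over all genes. Of 2066 tested genes annotated as lncRNAs, 429 were higher (20.8%) and 569 lower (27.5%), with a median log2 fold of -0.10. In bulk RNA, fewer cells of a type and less RNA per cell cannot be told apart.

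Dlx6os1, the antisense RNA of the Dlx5/Dlx6 locus, lies on chromosome 6 from 6820189 to 6871592 on the minus strand (GRCm38, 5 exon blocks). Its level in mature neurons was 12.3 CPM at P2, 9.49 CPM at P7 and 5.0 CPM at P16. In progenitors it was 40.7 CPM at P3, 58.6 CPM at P7, 37.5 CPM at P9 and 42.8 CPM at P16. All 4 progenitor libraries lay above all 3 mature neuron libraries. The means were 8.94 ± 3.69 CPM (SD, n = 3) and 44.9 ± 9.37 CPM (SD, n = 4), a 5.02-fold difference, with a log2 fold of -2.33 (SE 0.30, edgeR quasi-likelihood adjusted p = 0.000284). The call held in all 16 alternatives, with log2 folds from -2.84 to -2.04.

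Its protein-coding neighbours, which encode homeodomain transcription factors, differed in the same direction. Dlx6 lies on the plus strand inside the Dlx6os1 gene and shares 0 exon bases with it. For Dlx6, mature neurons held 10.3 ± 2.87 CPM (SD, n = 3) and progenitors 64.9 ± 14.5 CPM (SD, n = 4), and the log2 fold of -2.66 (SE 0.24) had an edgeR adjusted p of 5.09e-05. For Dlx5, 6212 bases from Dlx6os1, the means were 6.89 ± 2.17 CPM (SD, n = 3) and 40.7 ± 8.10 CPM (SD, n = 4), with a log2 fold of -2.56 (SE 0.24). In the progenitors P7 was the highest and P9 the lowest library in CPM for all 3 genes, and in mature neurons the order from high to low was P2, P7, P16 for all 3. In TPM the lowest progenitor library of Dlx6os1 was P3, at 21.13 against 22.41 at P9. This course in CPM was not particular to the locus, since Cnpy1 also had P7 highest (267 CPM) and P9 lowest (190 CPM) in progenitors. In mature neurons Cnpy1 likewise fell from P2 to P7 to P16. The ratio of Dlx6os1 to Dlx6 on the TPM scale stayed between 0.222 and 0.359 over the 7 libraries, while the TPM of Dlx6os1 itself spanned 2.53 to 36.0. Dlx3, a family member on chromosome 11, was lower too, at 0.877 ± 0.301 CPM (SD, n = 3) against 10.1 ± 3.80 CPM (SD, n = 4), with a log2 fold of -3.51 (SE 0.37).

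**Figure D2:**
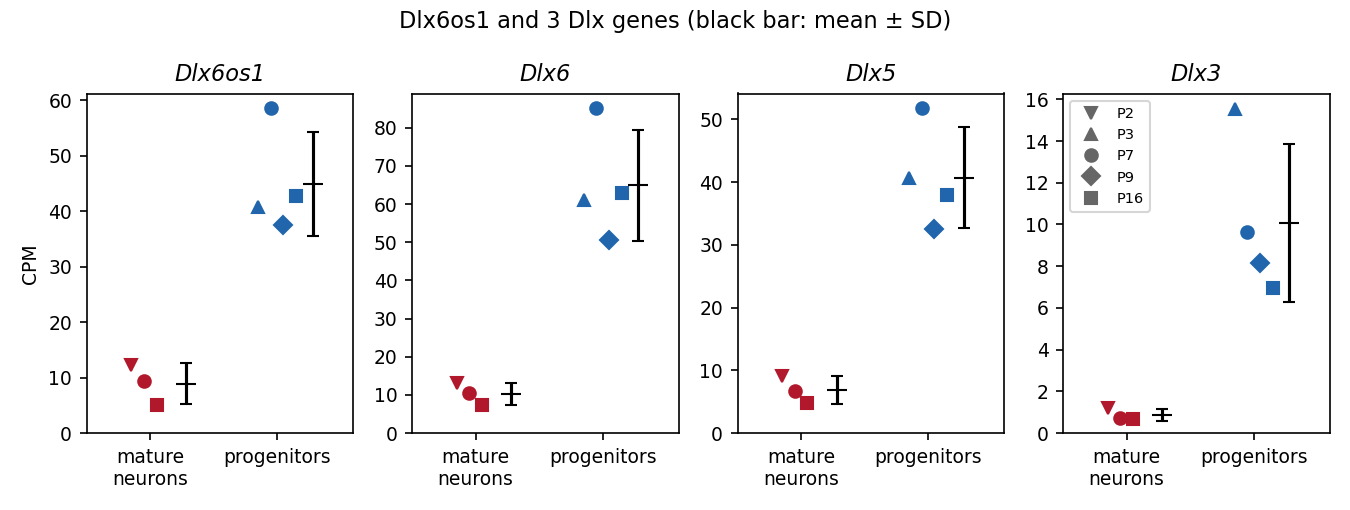
CPM of Dlx6os1, Dlx6, Dlx5 and Dlx3 in the mature neuron (red) and progenitor (blue) libraries, with symbols for age and black bars at the mean ± SD (n = 3 and n = 4); each panel has its own axis from 0. All 4 genes lie lower in every mature neuron library than in any progenitor library, and P7 is the highest progenitor library for the first 3 genes and P3 for Dlx3.

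The other Dlx genes on the list were rare. Dlx1 had 24, 60 and 10 counts in the P2, P7 and P16 mature neuron libraries and 5 to 8 counts in each progenitor library, and Dlx2 and Dlx4 had at most 11 counts in any library. None of these 3 passed the filter, so they were not tested. Markers of forebrain interneurons, the cells in which Dlx6os1 is best known, summed to 9.92 to 19.4 CPM over 6 genes in mature neurons and to 45.0 to 75.3 CPM in progenitors. Most of the progenitor sum was Gad2 and Sp8. Within that list mature neurons held 1.32 ± 0.302 CPM of Gad2 (SD, n = 3) and progenitors 16.8 ± 1.96 CPM (SD, n = 4), and Sp8 was 11.5 ± 3.05 and 40.7 ± 11.6 CPM, both called lower, whereas Gad1, at 0.807 ± 0.378 and 0.235 ± 0.280 CPM, was not called. Dlx1 and Dlx2 belong to the same list and, like Gad1, had higher means in mature neurons. These were 1.33 and 0.198 CPM, against 0.245 and 0.0664 CPM in progenitors. One of the 6 markers was at 0 in the P16 mature neuron library and 2 were at 0 in the P3 progenitor library. The part of such cells in the Dlx6os1 difference was not tested. The second entry named Dlx6os1, a 146-base model at chromosome 6, 6871488 to 6871633, had 0 counts in every library. It shares 104 bases with the first entry on the same strand, and reads there cannot be told apart between the entries. This 0 therefore sets no upper limit on its level.

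Sox2ot lies on chromosome 3 from 34104270 to 34682619 on the plus strand and holds Sox2 within its span, on the same strand and with 0 shared exon bases. It was rare, with 16, 13 and 15 counts in the P2, P7 and P16 mature neuron libraries and 4, 9, 7 and 11 counts in the P3, P7, P9 and P16 progenitor libraries. The populations did not overlap in CPM, at 0.623 ± 0.0631 (SD, n = 3) and 0.293 ± 0.115 (SD, n = 4), with a log2 fold of 1.08 (SE 0.35, edgeR quasi-likelihood adjusted p = 0.0281). They did overlap in TPM, at 0.41 to 0.43 in mature neurons and 0.13 to 0.44 in progenitors. Sox2ot met the filter on low counts only through the mature neuron libraries. The call was lost in 8 of 14 alternatives, among them DESeq2 (adjusted p = 0.0916) and the fits without any 1 of the mature neuron libraries (adjusted p = 0.0787 without P2, 0.0528 without P7 and 0.0582 without P16).

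Sox2 itself, the gene inside Sox2ot, stood at 40.6, 37.8 and 16.6 CPM in the P2, P7 and P16 mature neuron libraries and at 31.6, 31.8, 36.9 and 19.5 CPM in the P3, P7, P9 and P16 progenitor libraries. The populations overlapped, and the P16 library was the lowest in each. The log2 fold of 0.08 (SE 0.32, edgeR quasi-likelihood adjusted p = 0.843) turned to between -0.14 and -0.05 in 8 of 16 alternatives. The Sox2ot count was 0.469 to 3.87% of the Sox2 count in the same library. Markers of sustentacular cells, which also express Sox2, summed to 2507 to 3624 CPM over 8 genes in mature neurons and 1575 to 2978 CPM in progenitors, and olfactory ensheathing glia markers summed to 22.4 to 54.4 and 7.97 to 17.8 CPM over 6 genes. Their part in the Sox2ot and Sox2 levels was not tested.

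Rmst, on chromosome 10 from 92071037 to 92165170 on the minus strand, was at the edge of detection. Its counts were 5, 4 and 1 in the P2, P7 and P16 mature neuron libraries and 6, 3, 3 and 2 in the P3, P7, P9 and P16 progenitor libraries. A difference between the populations was not detectable at this depth; a fit with no filter gave a log2 fold of 0.10 (SE 0.68, edgeR quasi-likelihood adjusted p = 0.912).

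Malat1 and Neat1 lie next to each other on chromosome 19, both on the minus strand, at 5795690 to 5802672 and 5824708 to 5845478, with 22035 bases between them. Malat1 stood at 560, 444 and 435 CPM in the P2, P7 and P16 mature neuron libraries. In progenitors it stood at 342, 475, 416 and 390 CPM at P3, P7, P9 and P16. The highest library was a mature neuron one and the lowest a progenitor one, but the ranges overlapped. The means of 479 ± 69.7 CPM (SD, n = 3) and 406 ± 55.4 CPM (SD, n = 4) gave a log2 fold of 0.24 (SE 0.13, edgeR quasi-likelihood adjusted p = 0.149). Malat1 varied by 1.64-fold between its highest and lowest library, near the middle of the 10543 genes of at least 10 CPM (percentile 49.5).

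Neat1 stood at 144, 125 and 284 CPM in the P2, P7 and P16 mature neuron libraries. In progenitors it stood at 151, 233, 192 and 226 CPM at P3, P7, P9 and P16. The P2 and P7 mature neuron libraries were the lowest of all 7 and the P16 mature neuron library was the highest, so the population ranges overlapped. The means were 184 ± 86.8 CPM (SD, n = 3) and 201 ± 37.4 CPM (SD, n = 4), with a log2 fold of -0.12 (SE 0.28, edgeR quasi-likelihood adjusted p = 0.726). Without the P16 mature neuron library Neat1 was called lower in mature neurons (log2 fold -0.58, SE 0.17, adjusted p = 0.0175, with a range of 0.0175 to 0.944 over its alternatives). That library is the one with the high leukocyte and Bowman gland marker sums, and also the highest in erythroid markers (288 CPM over 5 genes against 17.4 to 124 CPM). Their part in its Neat1 level was not tested.

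On the TPM scale the ratio of Neat1 to Malat1 was 0.338, 0.371 and 0.841 in the P2, P7 and P16 mature neuron libraries and 0.567, 0.618, 0.583 and 0.715 in the P3, P7, P9 and P16 progenitor libraries. It thus spanned 0.338 to 0.841 over the 7 libraries, where the ratio of Dlx6os1 to Dlx6 spanned 0.222 to 0.359. The protein-coding gene Frmd8, 4223 bases from Neat1, was lower in mature neurons (log2 fold -0.95, SE 0.11, edgeR adjusted p = 0.000171).

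Miat lies on chromosome 5 from 112213228 to 112229395 on the minus strand. Its level in mature neurons was 286 CPM at P2, 36.3 CPM at P7 and 263 CPM at P16. In progenitors it was 216 CPM at P3, 153 CPM at P7, 105 CPM at P9 and 90.8 CPM at P16. The P7 mature neuron library was the lowest of all 7 while the other 2 mature neuron libraries were the highest. The means of 195 ± 138 CPM (SD, n = 3) and 141 ± 56.6 CPM (SD, n = 4) gave a log2 fold of 0.47 (SE 0.60, edgeR quasi-likelihood adjusted p = 0.524). Without the P7 mature neuron library Miat was called higher in mature neurons (log2 fold 0.96, SE 0.31, adjusted p = 0.0368, with a range of 0.0368 to 0.940 over its alternatives), and with the P7 and P16 libraries alone and age as a block the log2 fold was -0.22.

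The libraries of a population differed widely in Miat. Its log2 range within mature neurons was 2.98, at percentile 99.7 of the 10543 genes of at least 10 CPM, and its range within progenitors was at percentile 98.4. The 6 exon blocks of Miat share 2260 bases with Gm26953, a lncRNA gene on the opposite strand, which had 62, 9 and 61 counts in the P2, P7 and P16 mature neuron libraries and 34, 14, 20 and 16 in the P3, P7, P9 and P16 progenitor libraries. Gm26953 was thus also lowest in the P7 mature neuron library. The strand setting of the counting is not given in the sources used here, so reads of the 2 genes may be mixed.

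Snhg11, on chromosome 2 from 158375638 to 158386145 on the plus strand, is a lncRNA in RefSeq and a protein-coding gene in GENCODE M21. Its level was 20.6, 17.7 and 19.6 CPM in the P2, P7 and P16 mature neuron libraries and 9.60, 15.3, 17.1 and 13.9 CPM in the P3, P7, P9 and P16 progenitor libraries. The populations did not overlap in CPM, which carries TMM scaling. They did overlap in TPM, at 4.79 in the P7 mature neuron library and 4.84 in the P9 progenitor library, and in counts scaled to library size alone, at 16.7 and 17.9 CPM in the same libraries. The means were 19.3 ± 1.51 CPM (SD, n = 3) and 14.0 ± 3.20 CPM (SD, n = 4), and the difference missed the threshold (log2 fold 0.47, SE 0.19, edgeR quasi-likelihood adjusted p = 0.0604). It passed in 3 alternatives: DESeq2 (adjusted p = 0.0346), age as a covariate (0.0458) and the fit without the P9 progenitor library (0.0366), with a range of 0.0346 to 0.240 over its alternatives.

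A further comparison asked whether the RNAs change with age, as a slope per doubling of postnatal age shared by both populations. None of the 6 tested members passed, where 0% of all genes did (edgeR quasi-likelihood; 3746 of 17975 genes had an unadjusted p under 0.05, and DESeq2 called 1500 and limma 0). Neat1 had the largest slope of the 6 in size, 0.27 log2 per doubling (SE 0.09, edgeR quasi-likelihood adjusted p = 0.145). DESeq2 called it (slope 0.28, adjusted p = 0.0273), as did edgeR without the P7 mature neuron library (0.29, adjusted p = 0.0283), and without the P16 mature neuron library the slope was 0.10 (adjusted p = 0.680). Within the progenitors alone the Neat1 slope was 0.22 (SE 0.08, adjusted p = 0.306), and within the mature neurons alone 0.30 (SE 0.13, adjusted p = 0.407).

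Miat was lower at each later age in the progenitors, with a slope of -0.54 within that population (SE 0.07, edgeR quasi-likelihood adjusted p = 0.0908, not called), and had no steady course in the mature neurons. Over both populations its slope was -0.25 (SE 0.24, adjusted p = 0.611). Slopes of the other members were -0.23 for Dlx6os1 (SE 0.11, adjusted p = 0.296), -0.05 for Malat1 (SE 0.06), 0.07 for Snhg11 (SE 0.09) and 0.13 for Sox2ot (SE 0.17). None of them was called.

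**Figure D3:**
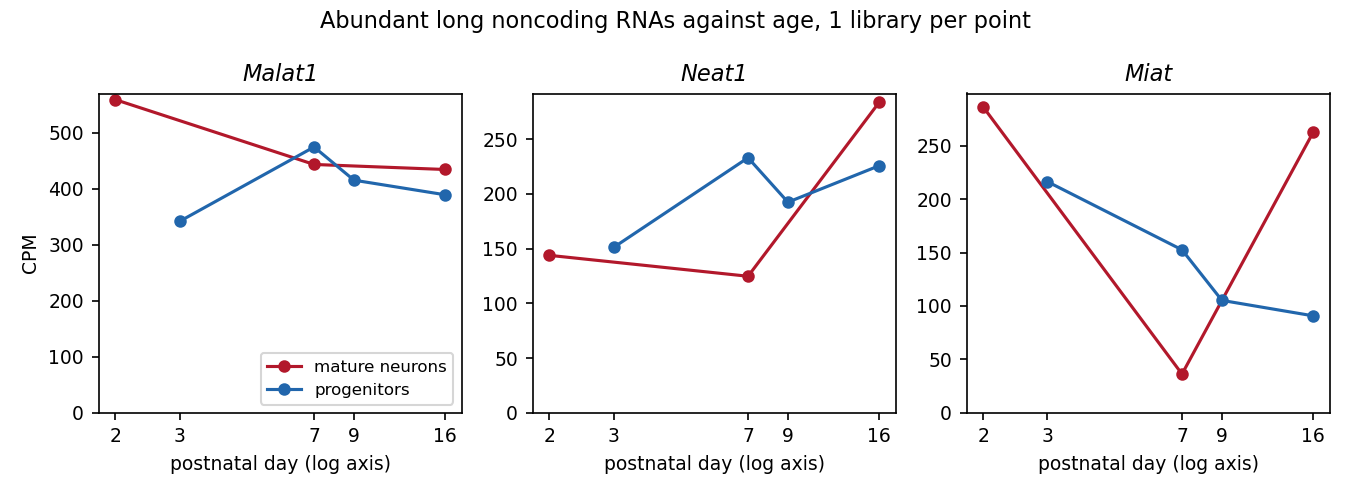
CPM of Malat1, Neat1 and Miat against postnatal day (log axis), with 1 library per point, mature neurons in red and progenitors in blue; each axis starts at 0. Neat1 is highest in the P16 mature neuron library at 284 CPM, and Miat runs from 216 CPM at P3 to 90.8 CPM at P16 in progenitors, while the mature neuron libraries lie at 286, 36.3 and 263 CPM.

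The difference of the age slopes between the populations was called for 0 of the 6 members, where 0% of all genes were called (edgeR quasi-likelihood; 1075 genes had an unadjusted p under 0.05, and DESeq2 called 6 and limma 0). The differences, mature neuron minus progenitor, ran from -0.58 for Sox2ot (SE 0.33) to 0.44 for Miat (SE 0.54), with adjusted p from 0.806 to 0.965. Without the P2 mature neuron library that of Miat was 2.93 (SE 0.17, adjusted p = 0.0188), which then rests on the step from the P7 to the P16 mature neuron library.

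The proteins that work with these RNAs were read from lists of known partners. Of 15 paraspeckle protein genes, 11 were lower in mature neurons (73.3%) and 0 higher, where 30.0% of all tested genes were lower and 28.8% higher. The median log2 fold was -0.46, against 0.01 over all genes. For Nono, a core paraspeckle protein, mature neurons held 150 ± 3.89 CPM (SD, n = 3) and progenitors 320 ± 14.3 CPM (SD, n = 4), with a log2 fold of -1.09 (SE 0.06). Dazap1 and Cpsf7, RNA-binding proteins of the same bodies, had log2 folds of -0.68 and -0.63. The 4 not called were Hnrnph3, Pspc1, Hnrnpk and Nudt21.

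Of 27 nuclear speckle and SR splicing protein genes, 17 were lower and 0 higher, with a median log2 fold of -0.34. The 63% called is near the 58.8% of all tested genes called in either direction, while 30.0% of all tested genes were lower. Srsf7 (log2 fold -1.08), Srsf11 (-0.55) and Srsf2 (-0.64), which are SR family splicing factors, and Ddx39b (-0.91), an RNA helicase of splicing and export, had the smallest p. Of the 4 genes whose proteins bind Miat, Celf3 (-1.10), Srsf1 (-0.52) and Sf1 (-0.40) were lower, and Qk did not pass (0.14, edgeR adjusted p = 0.326). Neat1, Malat1 and Miat themselves were not called, and whether an RNA differs from its partners was not tested.

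Among the other lncRNAs, 10 of 17 tested small nucleolar RNA host genes were lower in mature neurons (58.8%) and 2 were higher (11.8%), with a median log2 fold of -0.40. Of all tested genes 30.0% were lower and 28.8% higher, and of annotated lncRNAs 27.5% and 20.8%. Snhg5 (-1.68), Snhg17 (-1.07) and Gas5 (-0.78) were lower and Snhg3 (1.68) was higher. The other higher gene, Snhg18, named after its values were seen, was near the threshold (0.73, edgeR adjusted p = 0.0434), and the count of higher hosts was 1 in most alternatives. With the P7 and P16 libraries alone and age as a block the count of lower hosts was 6. Of 7 other broadly expressed lncRNAs, Jpx (-0.75) and Tug1 (-0.25) were lower and 0 were higher, and this 28.6% is close to the 30.0% of all tested genes. Of 8 other neural lncRNAs tested, from 20 listed, Sox1ot (3.77), Peg13 (0.47) and Emx2os (0.49) were higher and 0 were lower. This is a share of 37.5%, where 28.8% of all tested genes were higher. The call of Emx2os was lost in 6 of 16 alternatives. Sox1ot was rare, since mature neurons held 3.14 ± 0.744 CPM (SD, n = 3) and progenitors 0.226 ± 0.0564 CPM (SD, n = 4), and on log2(TPM + 1) its difference was 0.65. It met the filter on low counts only through the mature neuron libraries, so the share of 37.5% depends in part on that filter. No gene of these lists was called for the age slope or the difference of slopes.

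**Figure D4:**
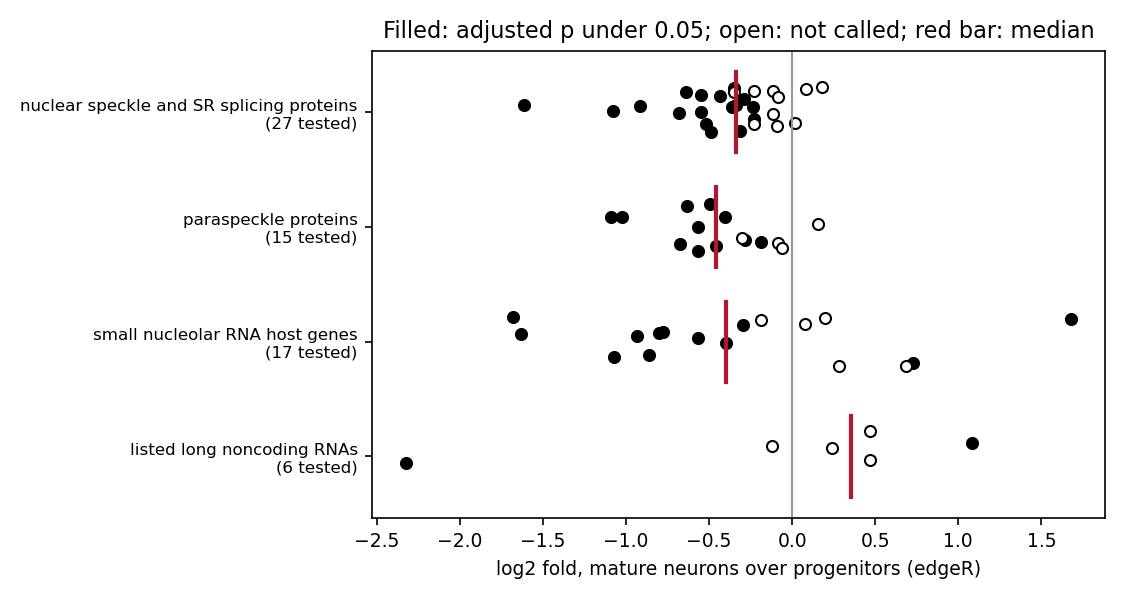
Log2 fold, mature neuron over progenitor, of the 6 tested listed RNAs, 17 small nucleolar RNA host genes, 15 paraspeckle and 27 speckle and SR protein genes; filled points have an edgeR adjusted p under 0.05, open points do not, and red bars mark medians. The protein lists lie mostly left of 0, with medians of -0.46 and -0.34, while the listed RNAs run from -2.33 for Dlx6os1 to 1.08 for Sox2ot.

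Profiles of the members over the 7 libraries were compared with those of 9702 genes of at least 10 CPM, by the root-mean-square difference of centred log2 CPM. The nearest to Dlx6os1 were Dusp22 (0.13), a phosphatase, Cnpy1 (0.14), a member of the canopy family, and Actl6b (0.16), a neuronal subunit of the BAF chromatin remodelling complex. Their values, like those of Dlx6os1, fell into separate ranges in the populations, as Cnpy1 with 21.7 to 64.0 CPM in mature neurons and 190 to 267 CPM in progenitors. The neighbours Dlx6 and Dlx5 were also compared and were not among these nearest genes. The nearest to Malat1 were Noxo1 (0.08), Gas8 (0.09) and Mocs2 (0.09), and those to Neat1 were Mboat2 (0.16), AC160637.1 (0.17) and Glcci1 (0.18). Mboat2, a lipid acyltransferase, was likewise highest in the P16 mature neuron library, at 35.2 CPM against 17.3 to 30.3 CPM elsewhere. The nearest to Miat, Rasgef1b, differed by 0.75, where the deviation of Miat from its own mean was 0.97, so its profile had no close match. Snhg11 was nearest to Fbxl13, Fra10ac1 and Rmi1 (0.12 to 0.13), and Sox2ot to Cfap97d2, Casc4 and Lipo3 (0.16 to 0.18).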

How the data were processed

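Polyadenylated RNA of sorted mouse cells was sequenced from TruSeq Stranded mRNA libraries, per the labels' protocols. Tools named without role or order, per the submitters' processing notes, were STAR 2.6.1c, RSEM and bcl2fastq 2.18, with the build mm10. The annotation release and the strand setting are not given in these sources. The authors deposited raw read counts per gene and, separately, length-scaled TPM values. Of each library's total, 23.5 to 27.2% lay in 4 entries that name no gene and was left out of library sizes and tests. Multi-mapping reads, 11.9 to 13.9% of the total, are 1 of these entries, so the deposited counts hold them apart from the genes. Gene IDs matched GENCODE M21 for 99.77% of the table. Sequences and positions came from GENCODE M21 and RefSeq.

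Groups came from the labels (3 mature neuron, 4 progenitor libraries). Counts were tested by quasi-likelihood in edgeR 4.0.16 under R 4.3.3, after TMM scaling and filterByExpr, and p-values were adjusted by Benjamini-Hochberg over all genes (threshold 0.05). Models held population alone, population and log2 of postnatal day, or their interaction, with 5, 4 and 3 residual degrees of freedom. CPM values carry the TMM factors. Alternatives were DESeq2 1.42.0, limma 3.58.1 on log2(TPM + 1) or log2(TPM + 0.1) with a mean TPM of at least 1, other scaling and filters, an age covariate, an age block and each library left out. On simulated counts the population fit recovered 91% of genes changed 1 log2 unit and 100% of those changed 2. The age slope fit recovered 96% of slopes of 0.5, and the difference of slopes fit 49%. Changes were simulated only in genes with more counts than Sox2ot or Rmst, and with the spread typical of genes at that level. That spread came from the model with age and its interaction, so the rates of the population fit leave out spread with age. These rates therefore do not apply to Sox2ot and Rmst, nor to Miat, Neat1, Dlx6os1 and Snhg11, which varied more between libraries of a population than most genes. The log2 range within mature neurons was at percentile 95.5 for Neat1 and 96.4 for Dlx6os1, and within progenitors at 94.0 for Snhg11. The text names all members, list genes with the 4 smallest p among called genes, Sox2, Dlx5 and Dlx6, neighbouring or overlapping genes, and the 3 genes nearest in profile. Some genes that this rule takes are not reported here. The members and lists were chosen with earlier results of these data known. Of the listed symbols, Snhg7, Snhg16, Norad, Oip5os1 and Cdr1os matched no entry.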

Additional observations from a re-analysis of the deposited data

How the results depend on the processing

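Of the 2 members called between the populations, Dlx6os1 was called in all 16 alternatives. Sox2ot was not: the count was 1 with no filter, with limma on log2(TPM + 1), on log2(TPM + 0.1) and on log2(TPM + 1) with no filter, and with P7 and P16 only and age as a replicate block; the TPM fits with a filter did not test it. The count was 1 to 2 when each library was left out in turn, with 1 without the P2 mature neuron library; without the P16 one the called members were Dlx6os1 and Neat1, without the P7 one Dlx6os1 and Miat, and without the P9 progenitor library Dlx6os1 and Snhg11. The labels give no replicate numbers, so the only block possible was age at P7 and P16, where the log2 fold of Miat was -0.22 and 6 small nucleolar RNA host genes were lower. The count of annotated lncRNAs higher in mature neurons was 278 of 1483 tested on log2(TPM + 0.1), against 429 of 2066 as reported. Over all genes the counts of higher genes were 3806 of 16869 and 5180 of 17975. One member, Neat1, passed for the age slope with DESeq2, and leaving out each library in turn gave 0 to 1 for the age slope and 0 to 1 for the difference of slopes. All genes called for age were 0 as reported, 770 with no filter, 986 without the P7 mature neuron library, 1124 on a linear day scale and 1500 with DESeq2.

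Every reversed value missed the threshold in both fits, and the cause was not tested. The log2 fold of Sox2 was -0.054 with library sizes only, -0.11 on log2(TPM + 1), -0.12 on log2(TPM + 0.1), -0.11 with no filter on TPM and -0.068 with age as a covariate. In fits added after seeing the data, the age slope of Malat1 was 0.078 in progenitors alone, and those of Snhg11 and Sox2ot were -0.030 and -0.033 in mature neurons alone. When each library was left out in turn, the log2 folds of Sox2 and Neat1 ran from -0.14 to 0.39 and from -0.58 to 0.095, and the age slopes of Malat1 and Snhg11 from -0.14 to 0.059 and from -0.048 to 0.23. The differences of slopes then ran from -0.35 to 0.097 for Malat1, -0.34 to 0.77 for Neat1, -1.11 to 2.93 for Miat and -0.56 to 0.13 for Snhg11.

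Scaling by library sizes only moved the median of all genes to a log2 fold of -0.13, and the share of calls that were higher from 49.0% to 38.2% (39.6%, 39.5% and 37.4% on TPM). Depth limits Rmst and Sox2ot, with at most 6 and 16 counts in a library.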
